A study of Mus musculus with 5 samples.

Results

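T and natural killer (NK) cell genes were followed in RNA from the CD31-positive fraction of infarcted mouse hearts, 5 days after the infarct. The 10 genes were chosen by symbol, as Cd3e, Cd3d, Cd3g, Cd4, Cd8a, Lck, Cd2, Il7r, Nkg7 and Klrd1, and all 10 were found among the 17638 genes of the table. The mice were 2 months old on a C57BL/6 background, and every heart had been infarcted. The 3 control libraries carry the genotype label control, and the 2 knockout libraries the label Tbx1cko, a conditional knockout of the T-box transcription factor gene Tbx1 that the series describes as endothelial. The Cre driver, the deleted exons, the sex of the mice and the number of animals per library are not given in the labels used here. Whether each library is a different animal is not stated in the labels, so a p-value here speaks only of library-to-library spread, which may be technical. Polyadenylated RNA was sequenced, and a value is a normalised read count, a gene's reads after division by the size factor of the library.

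CD3 gamma, delta and epsilon chains pair up beside the T cell receptor and carry its signal into the cell. CD4 and CD8 are the co-receptors that bind MHC class II and class I, and they bring the kinase LCK to the receptor, where it phosphorylates the CD3 tails. CD2 is an adhesion receptor of T and NK cells, the IL-7 receptor keeps resting T cells alive, NKG7 sits in cytotoxic granules, and CD94, encoded by Klrd1, is a lectin-like NK receptor chain. CD31 itself is carried by endothelial cells, platelets and many leukocytes, including subsets of T cells, so lymphocyte RNA can enter a CD31-positive preparation. Cd4 is also read in some dendritic cells and macrophages, Cd8a in some dendritic cells, and Il7r in lymphatic endothelial cells and some myeloid cells.

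The libraries held 14689782 to 18617284 recovered reads. Tbx1 was at 64.4, 72.7 and 69.6 normalised counts in controls 1, 2 and 3. It was at 18.3 and 17.3 in Tbx1cko replicates 1 and 2 (log2 difference -1.89), below all controls in both libraries. Of all genes tested, 13.9% were lower in Tbx1cko without overlap. The main test, limma with all 5 libraries, called 0 genes at an adjusted p of 0.05, so Tbx1 was not called either. Endothelial markers were abundant, with Pecam1, which encodes CD31, at 33715 to 43313 normalised counts. Control replicate 2 stood apart from the rest: across genes, the Pearson coefficient of its log2 values was 0.859 to 0.889 with the other libraries, which reached 0.980 to 0.988 among themselves. Genes are no independent replicates, and the coefficients only describe the libraries. Results below are therefore given with and without that library. Lower values in bulk RNA can come from fewer cells of a type or from less RNA per cell, and these cannot be told apart here.

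The start regions of 4 members are shown, a choice made after the values were seen. Cd3e, Cd3d and Lck had the same lowest and the same highest library, which Il7r did not share. Each run is the sense strand from 250 bases before to 50 bases after a RefSeq start on GRCm38.p6, with capitals for an ETS-type motif (CAGGAAGT, or its reverse complement ACTTCCTG) and a RUNX-type motif (TGTGGT, or ACCACA). These motifs were picked after the sequences had been read, so their share among members is a description only. The ETS-type motif did not follow the grouping by library, since Cd3d lacked it and Il7r had it.
Cd3e, minus strand, chr9:45009562-45009861: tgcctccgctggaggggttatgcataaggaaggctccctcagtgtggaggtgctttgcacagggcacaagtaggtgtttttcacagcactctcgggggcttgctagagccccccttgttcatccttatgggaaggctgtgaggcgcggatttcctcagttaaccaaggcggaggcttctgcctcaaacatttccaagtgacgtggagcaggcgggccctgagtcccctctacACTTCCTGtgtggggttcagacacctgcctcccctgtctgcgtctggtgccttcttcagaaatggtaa
Cd3d, plus strand, chr9:44981536-44981835: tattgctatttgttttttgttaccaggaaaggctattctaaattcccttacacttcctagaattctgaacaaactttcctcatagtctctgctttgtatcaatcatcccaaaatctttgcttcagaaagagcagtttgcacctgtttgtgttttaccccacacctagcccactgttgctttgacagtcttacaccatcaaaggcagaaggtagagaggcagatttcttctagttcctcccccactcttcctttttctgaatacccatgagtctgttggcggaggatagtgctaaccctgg
Lck upstream start, minus strand, chr4:129573592-129573891: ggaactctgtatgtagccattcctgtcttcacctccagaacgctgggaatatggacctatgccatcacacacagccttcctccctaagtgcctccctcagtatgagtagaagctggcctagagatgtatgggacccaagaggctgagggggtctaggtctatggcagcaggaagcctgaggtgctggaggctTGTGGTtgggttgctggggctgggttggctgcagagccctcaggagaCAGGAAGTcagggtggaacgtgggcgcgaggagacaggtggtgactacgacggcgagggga
Lck downstream start, minus strand, chr4:129558323-129558622: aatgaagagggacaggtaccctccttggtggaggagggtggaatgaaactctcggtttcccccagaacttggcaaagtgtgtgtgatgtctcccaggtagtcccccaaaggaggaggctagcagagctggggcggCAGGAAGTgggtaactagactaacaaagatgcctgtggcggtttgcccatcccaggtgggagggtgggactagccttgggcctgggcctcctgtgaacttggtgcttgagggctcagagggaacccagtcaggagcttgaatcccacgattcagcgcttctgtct
Il7r, minus strand, chr15:9529827-9530126: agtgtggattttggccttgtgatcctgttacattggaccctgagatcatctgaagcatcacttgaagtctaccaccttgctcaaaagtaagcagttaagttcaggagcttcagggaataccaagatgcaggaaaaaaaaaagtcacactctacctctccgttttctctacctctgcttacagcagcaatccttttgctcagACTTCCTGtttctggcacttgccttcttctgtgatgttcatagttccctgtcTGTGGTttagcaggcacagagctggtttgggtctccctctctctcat

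The ETS-type letters were found in 4 of the 8 windows of members, both of Lck, that of Cd3e and that of Il7r, and in 3.33% of all 32851 windows of the same length. Their first base lay at -18 from the start in Cd3e, -49 in Il7r, and -11 and -115 in the upstream and downstream windows of Lck. The RUNX-type letters were in 3 windows, those of Il7r, Nkg7 and the upstream start of Lck, against 16.8% of all windows. A match describes letters and does not show a bound site. Windows were found for 7 members, and Cd2, Cd4 and Klrd1 are named only.

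The CD3 genes lie in 1 cluster on mouse chromosome 9 that spans 40056 bases in GRCm38. In GENCODE M21, Cd3g (ENSMUSG00000002033.14) runs from 44969572 to 44980431 on the minus strand, Cd3d (ENSMUSG00000032094.8) from 44981786 to 44987339 on the plus strand, and Cd3e (ENSMUSG00000032093.7) from 44998740 to 45009627 on the minus strand. The starts of Cd3g and Cd3d face away from each other across 1355 bases. All 3 are protein-coding. Exons of Cd3e share 135 bases, 3.31% of their length, with the antisense gene Gm48719, and the strand setting of the counting is not given in the sources used here.

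Transcripts of the CD3 chains were scarce in every library, and no difference between genotypes passed the test. Cd3e had 15.8, 33.1 and 43.3 normalised counts in controls 1, 2 and 3 and 21.04 and 32.6 in the Tbx1cko libraries. The range of the controls enclosed both Tbx1cko values. The control mean was 30.7 ± 13.9 (SD, n = 3) and that of Tbx1cko 26.8 ± 8.18 (SD, n = 2), with a log2 difference, Tbx1cko minus control on log2(normalised count + 1), of -0.11 (SE 0.540) and a limma adjusted p of 0.936. Cd3d had 9.04, 12.9 and 22.6 in controls and 9.15 and 21.4 in Tbx1cko, again inside the control range, with a log2 difference of 0.02 (SE 0.605, limma adjusted p = 0.989). Cd3g had 16.9, 6.44 and 38.6 in controls and 26.5 and 17.3 in Tbx1cko. Its lowest value was that of control replicate 2, and its log2 difference of 0.37 (SE 0.774, limma adjusted p = 0.848) became -0.25 without that library.

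These values rest on few reads. Cd3e was counted on 14 reads in control replicate 1, with an exact 95% Poisson interval of 7.65 to 23.5, and on 46 in control replicate 3, with an interval of 33.7 to 61.4. These were its lowest and highest libraries. Cd3d had 8 to 24 reads and Cd3g 7 to 41. The intervals cover counting error only, since reads without molecular identifiers are not independent molecules.

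The co-receptor genes differed from each other in level more than by genotype. Cd4 (ENSMUSG00000023274.14, chromosome 6, 124864692 to 124888221, minus strand) had 224, 102 and 136 normalised counts in controls and 142 and 139 in Tbx1cko. The Tbx1cko values nearly coincided and lay between those of the controls. On average controls had 154 ± 62.7 (SD, n = 3) and Tbx1cko 140 ± 2.24 (SD, n = 2), with a log2 difference of -0.06 (SE 0.386, limma adjusted p = 0.954), or -0.32 without control replicate 2. Cd8a (ENSMUSG00000053977.13, chromosome 6, 71373427 to 71379173, plus strand) had 22.6, 12.9 and 19.8 in controls and 15.5 and 32.6 in Tbx1cko, which gave a log2 difference of 0.32 (SE 0.502, limma adjusted p = 0.802). One Tbx1cko library was above all controls and the other inside their range.

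Per kilobase of transcript, the level of Cd4 was 9.96, 7.98 and 6.95 times that of Cd8a in controls 1, 2 and 3 and 9.18 and 4.28 times in Tbx1cko replicates 1 and 2. Set against Cd3e per kilobase, Cd4 was at 6.65, 1.45 and 1.48 times in controls and 3.17 and 1.999 times in Tbx1cko. Cd4 thus exceeded Cd3e in all 5 libraries, by a factor that varied within both groups. The highest Cd4 value was in control replicate 1, which had the lowest Cd3e, Cd3d, Lck and Cd2 values. That library also had the highest value among the 5 of Csf1r, a macrophage growth factor receptor gene, at 9780 normalised counts against 5891 to 7669 in the others. Csf1r was picked from 13 listed macrophage and monocyte markers after the values were seen. The summed level per kilobase of that list was 75933, 51359 and 58227 in controls and 72226 and 73079 in Tbx1cko. The Tbx1cko libraries were thus near control replicate 1 in this sum but below it in Cd4. The part of myeloid RNA in the Cd4 values was not tested.

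Lck (ENSMUSG00000000409.14, chromosome 4, 129548344 to 129573641, minus strand) had 63.3, 88.3 and 116 normalised counts in controls and 67.7 and 79.5 in Tbx1cko. Both Tbx1cko values lay inside the control range. Controls averaged 89.1 ± 26.2 (SD, n = 3) and Tbx1cko libraries 73.6 ± 8.35 (SD, n = 2), with a log2 difference of -0.24 (SE 0.351, limma adjusted p = 0.793). Cd2 (ENSMUSG00000027863.8, chromosome 3, 101275899 to 101287939, minus strand) had 33.9, 46.0 and 63.0 in controls and 50.3 and 54.0 in Tbx1cko, which gave a log2 difference of 0.17 (SE 0.371, limma adjusted p = 0.852). Its Tbx1cko values sat in the middle of the controls. These were the members with the smallest standard errors, and the 95% intervals of their log2 differences ran from -1.11 to 0.64 for Lck and from -0.76 to 1.10 for Cd2. Each interval includes a difference of 2-fold in 1 direction, so similarity of the groups is not shown.

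Cd3e, Cd3d, Lck and Cd2 shared the ends of their order of libraries, lowest in control replicate 1 and highest in control replicate 3. Of the 14339 genes tested, 171 (1.19%) had those ends. These ends were seen after the values were known, and the 21 tested genes of the wider T cell receptor list held them in 0 cases, so they are given as a description. Summed over the CD3 chains, the level per kilobase was 33.0, 36.9 and 81.3 in controls 1, 2 and 3 and 46.0 and 52.5 in Tbx1cko replicates 1 and 2. Control replicates 1 and 3 differed more from each other than the 2 Tbx1cko libraries did. Averaged over the CD3 chains, the level per kilobase was 0.0932% to 0.237% of that of Pecam1.

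**Figure D1:**
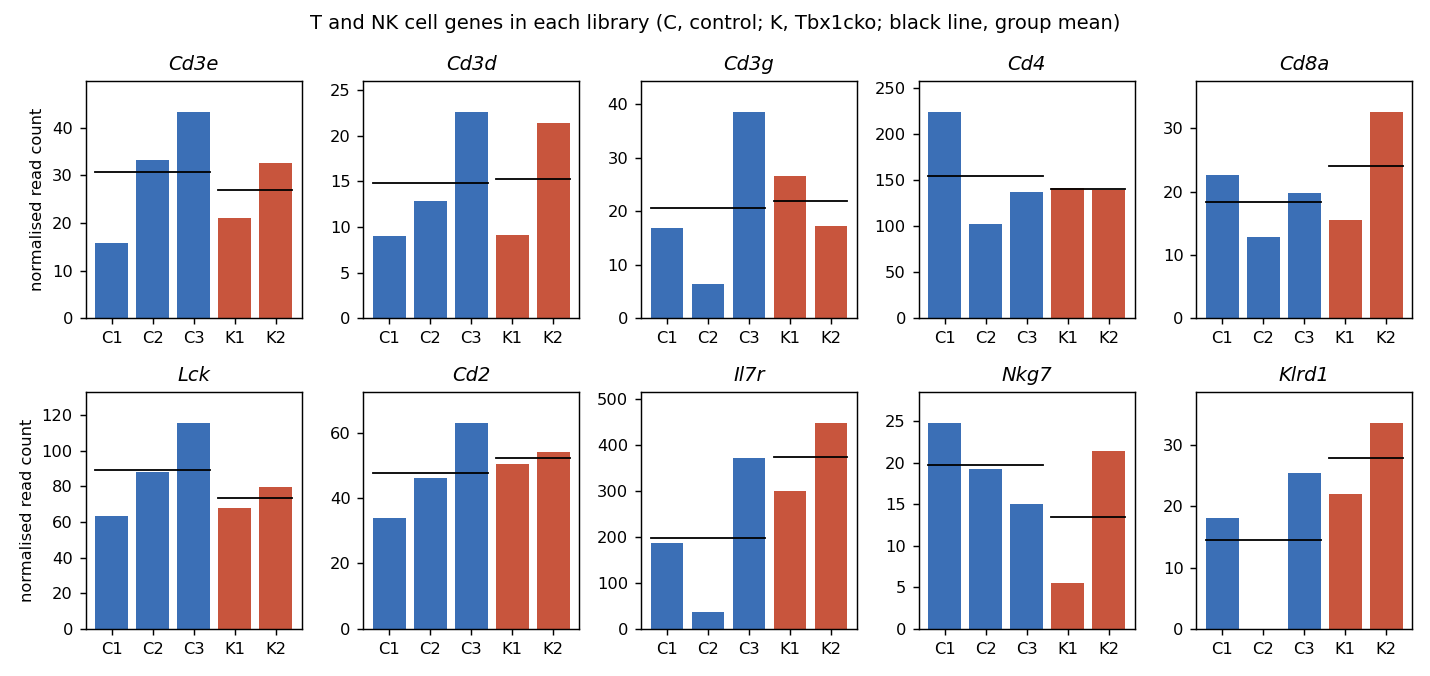
Normalised read count of each of the 10 genes (vertical axes, each with its own scale from 0) in control libraries C1 to C3 (blue) and Tbx1cko libraries K1 and K2 (red), with black lines at group means. The bars of the groups overlap for all 10 genes, and Klrd1 is at 0 and Il7r lowest in C2.

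Il7r, which encodes the alpha chain of the IL-7 receptor, had the most reads of the 10 genes, 1370 in all. The gene (ENSMUSG00000003882.5) lies on chromosome 15 from 9505788 to 9530176 on the minus strand. It had 186, 36.8 and 372 normalised counts in controls 1, 2 and 3 and 301 and 449 in Tbx1cko replicates 1 and 2. Control replicate 2 was lowest by far, and control replicate 3 lay between the Tbx1cko values. The control mean was 198 ± 168 (SD, n = 3) and that of Tbx1cko 375 ± 105 (SD, n = 2). The log2 difference, taken between means of log2 values, was 1.42 (SE 0.973, limma adjusted p = 0.762). With the same libraries edgeR gave 0.91 and DESeq2 0.92. Without control replicate 2 the difference was 0.48 (SE 0.291, limma adjusted p = 0.771), and after a correction for GC content with all libraries it was 0.52.

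Set against Ptprc, the pan-leukocyte gene for CD45, Il7r had 6.44%, 8% and 14.1% of its normalised count in controls 1, 2 and 3 and 10.5% and 13.8% in Tbx1cko. On that ratio control replicate 2 was no longer the lowest, and control replicate 3 exceeded both Tbx1cko libraries. Ptprc was itself at 460 normalised counts in control replicate 2 and at 2636 to 3257 in the other libraries. Both transcripts are poor in GC, at 40.5% for Il7r and 41.4% for Ptprc. The cytokine gene Il7 had 39.5, 6.44 and 77.2 normalised counts in controls and 53.0 and 39.7 in Tbx1cko, and was also lowest in control replicate 2, while its highest value was in control replicate 3.

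The NK receptor gene Klrd1 (ENSMUSG00000030165.16, chromosome 6, 129591782 to 129598775, plus strand) had 18.1, 0 and 25.4 normalised counts in controls and 22.0 and 33.6 in Tbx1cko. The 0 of control replicate 2 allows up to 3 reads, or 2.76 normalised counts, as a one-sided limit for counting error only, and the exact two-sided 95% Poisson interval reaches 3.69 reads. Its log2 difference of 1.82 (SE 1.501, limma adjusted p = 0.762) became 0.33 (SE 0.410, limma adjusted p = 0.902) without that library. Nkg7 (ENSMUSG00000004612.9, chromosome 7, 43437073 to 43438249, plus strand) had 24.9, 19.3 and 15.1 in controls and 5.49 and 21.4 in Tbx1cko. The low Tbx1cko replicate 1 rests on 6 reads, with an exact 95% Poisson interval of 2.20 to 13.1. The log2 difference was -0.76 (SE 0.648, limma adjusted p = 0.762), and it was 0.14 with that library left out.

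Of the 10 members, limma called 0 at an adjusted p of 0.05, against 0% of the 14339 genes tested. All 10 had passed the filter of a mean normalised count of at least 10. At an unadjusted p under 0.05 the count was 0 of 10, against 1.74% of all genes, and without control replicate 2 it was 0 of 10 against 7.46%, where 0.0209% of genes passed the adjusted threshold. On recovered reads edgeR called 0 members against 0% of genes, and DESeq2 called 0 of 10 against 0.0279%. Without control replicate 2 DESeq2 gave an adjusted p to Il7r alone, which was not called, against 0.888% called of the 8779 genes that had one. The groups overlapped for all 10 members, whereas 14.2% of genes were higher and 13.9% lower in Tbx1cko without overlap. The median log2 difference of the members was 0.10, with 6 higher and 4 lower, beside 0.03 for all genes tested. Without control replicate 2 these medians were -0.02 and 0.02, with 4 members higher and 6 lower. The members whose values without it are not given above had log2 differences of -0.0040 for Cd3e, -0.029 for Cd3d, 0.09 for Cd8a, -0.22 for Lck, 0.17 for Cd2 and -0.76 for Nkg7, with groups that overlapped for all 10, whereas 19.7% of genes were higher and 17.8% lower without overlap among those 4 libraries.

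**Figure D2:**
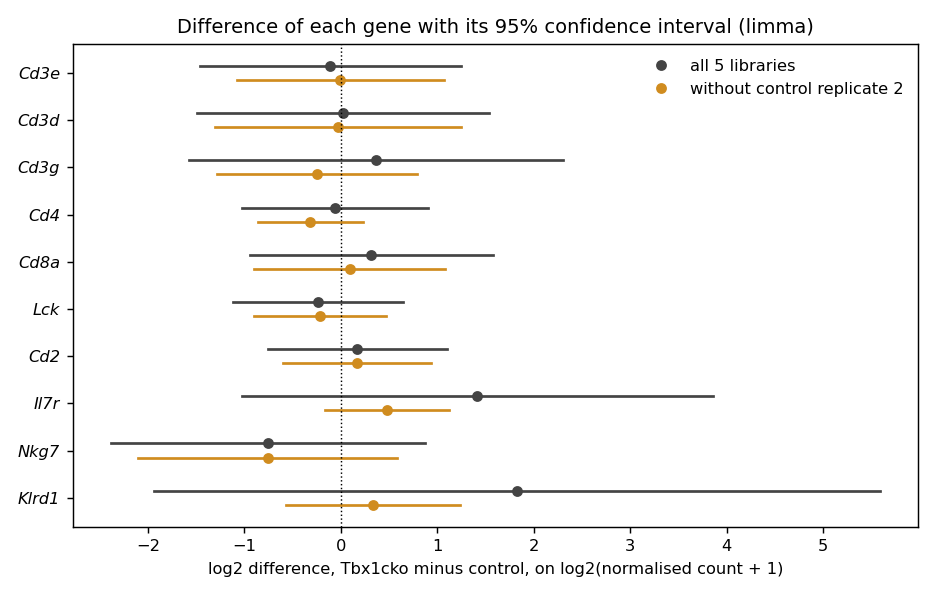
Log2 difference, Tbx1cko minus control, of each gene (points) with its 95% confidence interval from limma (lines), over all 5 libraries (grey) and without control replicate 2 (orange). All 20 intervals include 0, and the points of Il7r and Klrd1 move from 1.42 to 0.48 and from 1.82 to 0.33.

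Klrd1, Il7r and Cd3g, the members with the largest differences above 0, were those that control replicate 2 held least of. Its value was 0% of the mean of the other 4 libraries for Klrd1, 11.2% for Il7r and 25.9% for Cd3g. It was 56.9% for Cd8a, 63.8% for Cd4, 82.9% for Cd3d and 91.4% for Cd2, and 108%, 116% and 117% for Lck, Nkg7 and Cd3e. The GC content of the principal transcript was 36.1% for Klrd1, 40.5% for Il7r, 47.1% for Cd3g and 47.2% for Cd8a, and 50.03% to 54.3% for the other 6. Across the 10 members the Spearman coefficient between GC content and this ratio was 0.818, and across 13748 genes it was 0.814. Genes share the libraries and are not replicates, so no p is given. Control replicate 2 was the lowest of the 5 libraries for 5 members, Cd3g, Cd4, Cd8a, Il7r and Klrd1, against 41.5% of all genes.

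Genes of low GC behaved alike across the table. The 1401 genes under 42% GC had a median of 17.7% in control replicate 2 relative to the other libraries and a median log2 difference between genotypes of 0.92, which was 0.11 without that library. The 7084 genes at 50% GC and over had medians of 143%, -0.20 and -0.05. Loess correction for GC content moved Klrd1 from 1.82 to 0.45, Il7r from 1.42 to 0.52 and Cd3g from 0.37 to 0.14. What made control replicate 2 differ was not tested.

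**Figure D3:**
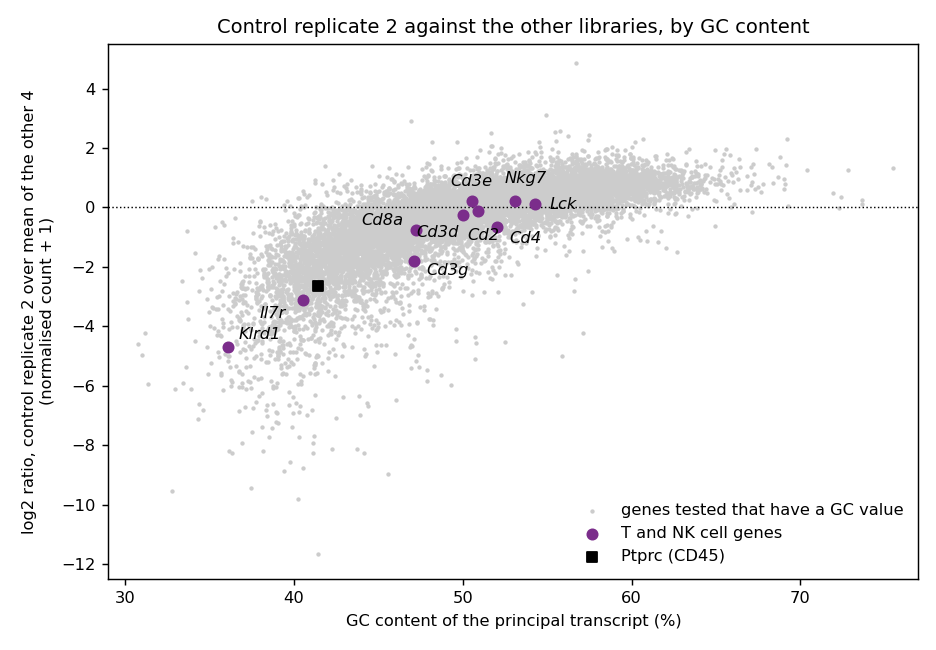
Log2 ratio of control replicate 2 to the mean of the other 4 libraries, each on normalised count + 1 (vertical axis), against GC content of the principal transcript (horizontal axis), for genes tested that have a GC value (grey), the 10 members (purple) and Ptprc (black square). Klrd1 at 36.1% GC and Il7r at 40.5% lie far below 0, while Lck at 54.3% lies near it.

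Compared per kilobase of the principal transcript, Il7r had the highest mean level over the 5 libraries, at 76.0 normalised counts per kilobase. Cd4 followed at 47.8, Cd2 at 42.9 and Lck at 37.9, then Klrd1 at 22.1, Cd3g at 20.7, Cd3e at 20.0 and Nkg7 at 19.6, and last Cd3d at 9.28 and Cd8a at 6.61. The libraries of neighbours in this order overlapped, and the order changed between libraries. In control replicate 1 Cd4 was above Il7r, at 72.0 against 52.7 per kilobase, and in control replicate 2 Il7r, at 10.4, was below Lck, Cd2, Cd4, Cd3e and Nkg7. Il7r made up 10.3% to 51.0% of the summed normalised counts of the members. Among the genes tested that were matched to a transcript, the members ranked between the 5.34th and the 39.0th percentile of this level. All 10 were thus in the lower range of those genes. Over the 4 libraries other than control replicate 2, the coefficient of variation of a member was 1.34 times, for Klrd1, to 6.23 times, for Il7r, what counting error alone gives.

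Other genes of the T cell receptor complex and its signalling gave no call either. Of 27 listed genes, 21 were tested, 13 higher and 8 lower in Tbx1cko, with a median log2 difference of 0.09 (0.05 without control replicate 2). Limma called 0 of 21, with 0 at an unadjusted p under 0.05. The adaptor genes Fyb and Lcp2 were the most abundant, and both are also used by myeloid cells. Fyb had 887, 606 and 903 normalised counts in controls and 897 and 957 in Tbx1cko, and Lcp2 had 847, 498 and 701, then 881 and 829.5. The phosphatase gene Ptpn22 had 140, 66.2 and 156 in controls and 201 and 255 in Tbx1cko, at a log2 difference of 0.99 (limma adjusted p = 0.762), or 0.61 without control replicate 2. It was among the 14.2% of all genes tested that were higher without overlap. The kinase gene Prkcq had 116, 77.3 and 130 in controls and 108 and 117 in Tbx1cko.

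Genes closer to the receptor itself also had low counts. Trac, the constant region of the alpha chain, had 33.9, 70.8 and 58.3 normalised counts in controls and 45.7 and 40.8 in Tbx1cko. The kinase gene Zap70 had 18.1, 46.0 and 28.2, then 24.7 and 21.4, and Cd247, the zeta chain, 97.2, 111 and 63.0, then 71.3 and 77.4. In these 3 genes control replicate 2 was the highest library, opposite to Il7r and Klrd1. The beta chain constant region genes Trbc1 and Trbc2 are close copies, so their split is uncertain. Trbc2 had 12.4, 23.9 and 15.1 in controls and 25.6 and 35.7 in Tbx1cko, at a limma adjusted p of 0.762, while Trbc1 had 18.1, 15.6 and 21.6, then 14.6 and 29.6.

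The lineage transcription factor list had 10 of 14 genes tested, 6 higher and 4 lower, with a median of 0.09 (0.10 without control replicate 2) and 0 called. Its most abundant members, Ets1, Runx3, Ikzf1 and Satb1, are not specific to T cells, and Ets1 alone had 9561 to 11203 normalised counts. Bcl11b, which sets T cell identity, had 20.3, 22.1 and 14.1 in controls and 14.6 and 15.3 in Tbx1cko. Tcf7 had 90.4, 110 and 78.1, then 91.5 and 103. Foxp3, the regulatory T cell factor, was under the filter, with 0.915 to 12.2 normalised counts.

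The NK and cytotoxic list had 11 of 30 genes tested, 6 higher and 5 lower, with a median of 0.14. Without control replicate 2 there were 3 higher and 8 lower, at a median of -0.10. Limma called 0. Il2rb, the shared IL-2 and IL-15 receptor chain, had 84.7, 130 and 143 normalised counts in controls and 91.5 and 115 in Tbx1cko. Sh2d2a, a T cell adaptor gene, had 63.3, 67.1 and 86.6, then 49.4 and 73.4, and the chemokine gene Ccl5 had 83.6, 47.8 and 30.1, then 48.5 and 61.1. Klra9 had 73.4, 0 and 67.7 in controls and 90.5 and 30.6 in Tbx1cko, with a GC content of 38.9%, and it belongs to a family of near-identical Ly49 genes, so its count is uncertain. Gzmb, which encodes granzyme B, was the list's only gene at an unadjusted p under 0.05, against 1.74% of all genes tested. It had 48.6, 32.2 and 31.99 in controls and 18.3 and 19.4 in Tbx1cko, which gave a log2 difference of -0.93 (limma adjusted p = 0.762), and its neighbour in function Prf1, for perforin, had 6.8, 13.8 and 8.47, then 6.40 and 10.2. Klrb1c, which encodes NK1.1, had 0 to 5.65 normalised counts, and 9 listed genes, among them Ncr1, Klrg1 and Ifng, were not analysed here.

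Markers of gamma delta T cells and innate lymphoid cells were led by genes that other cells use. Of 16 listed genes 8 were tested, 4 higher and 4 lower, with a median of 0.00 and 0 called, and without control replicate 2 there were 2 higher and 6 lower at a median of -0.23. Sox13, Kit, Rora and Zbtb16 were the most abundant. Zbtb16, the PLZF gene, had 104, 220 and 252 normalised counts in controls and 159 and 984 in Tbx1cko, so 1 library sets its mean. The constant region genes Tcrg-C1 and Trdc reached at most 14.6 and 5.49 normalised counts.

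**Figure D4:**
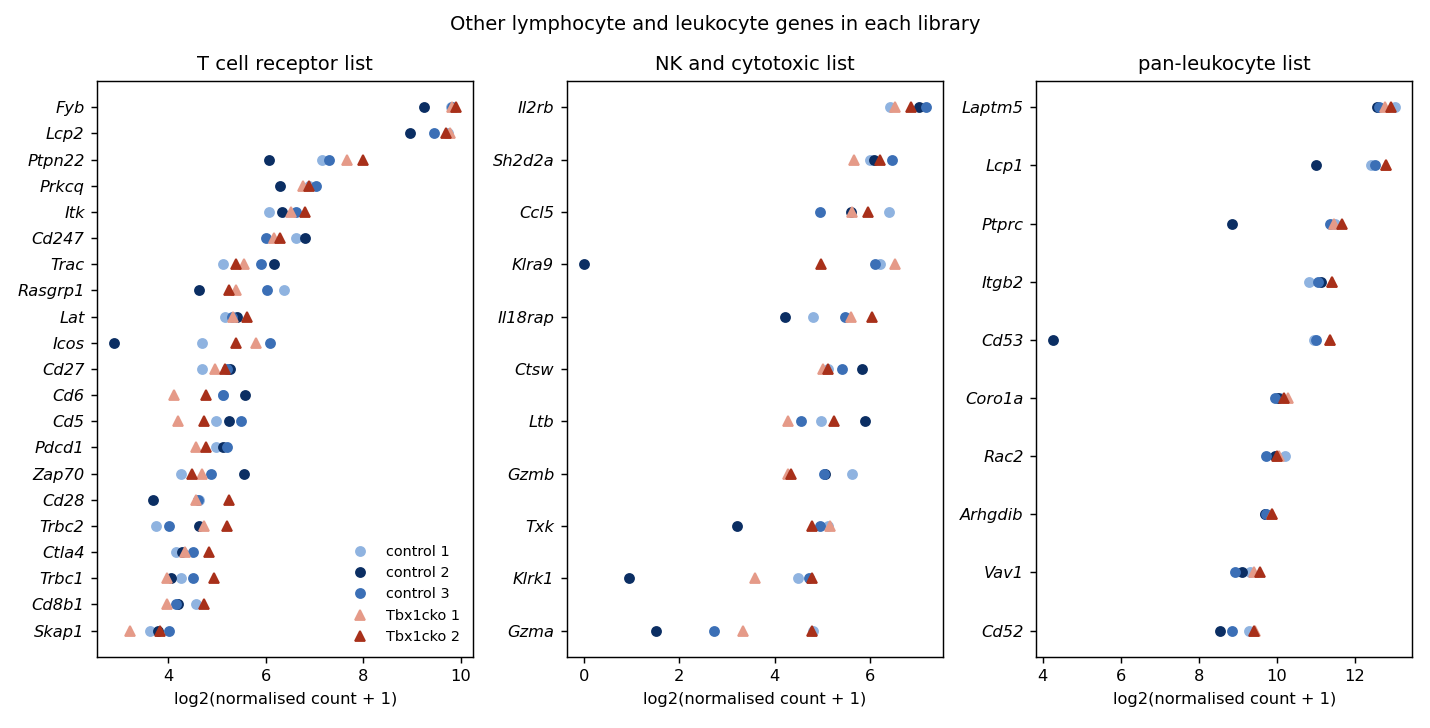
Log2(normalised count + 1) (horizontal axes) of the tested genes of 3 lists, in controls (blue circles) and Tbx1cko (red triangles). Control replicate 2 (darkest blue) lies far to the left for Klra9, Klrk1, Cd53 and Ptprc, and symbols of the groups mix for most T cell receptor and NK genes.

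Receptors and signals that guide and feed T cells were also listed. Homing receptors had 11 of 13 genes tested, 10 higher and 1 lower, with a median of 0.12 (0.10 without control replicate 2) and 0 called. Without that library 7 were higher and 4 lower. S1pr1, the egress receptor that endothelium also carries, had 10336, 11708 and 12028 normalised counts in controls and 11179 and 13273 in Tbx1cko. The gene lower in Tbx1cko with all libraries was Cxcr3, a receptor of effector T cells, with 28.2, 20.2 and 30.1 in controls and 10.98 and 18.3 in Tbx1cko. Its groups did not overlap, which 13.9% of all genes tested shared in that direction, and its limma adjusted p was 0.762. Selplg and Cxcr4, used by many leukocytes, had overlapping groups.

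Among 14 chemokine and survival cytokine genes 13 were tested, 7 higher and 6 lower, with a median of 0.10 and 0 called by limma. Without control replicate 2 there were 3 higher and 10 lower, at a median of -0.22. Cxcl12, Icam1, Kitl and Ccl21a were the most abundant. Ccl21a, the ligand that draws CCR7-bearing T cells, had 2806, 3929 and 3178 normalised counts in controls and 1993 and 1439 in Tbx1cko, which gave a log2 difference of -0.95 (limma adjusted p = 0.762), and DESeq2 without control replicate 2 gave it an adjusted p of 0.00247. It has near-identical copies, so its count is uncertain. Ccl21a is also a marker of lymphatic endothelium, and all 7 markers of that cell type were lower in Tbx1cko, at a median of -0.44 (-0.69 without control replicate 2). Of these, 3 were without overlap, against 13.9% of all genes tested that were lower without overlap, and limma called 0. DESeq2 without control replicate 2 called 4, against 0.888% of the genes to which it gave an adjusted p. Their summed level per kilobase was 4956, 6559 and 5907 in controls and 3961 and 3119 in Tbx1cko, and the part of lymphatic cells in the values of Ccl21a and Il7r was not tested. Icam1, the ligand of the integrin LFA-1, had 11939, 15027 and 10714 in controls and 7072 and 8926 in Tbx1cko (limma adjusted p = 0.762). It was among the 13.9% of genes lower without overlap. Ccr7, the receptor of Ccl21a, had 168, 202 and 126, then 176 and 182, with overlapping groups.

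The common gamma chain receptor list, which holds the partners of Il7r, had 14 of 15 genes tested, 4 higher and 10 lower, with a median of -0.22 and 0 called, and without control replicate 2 there were 2 higher and 12 lower at a median of -0.11. Il2rg, the gamma chain that pairs with the IL-7 receptor alpha chain, had 906, 766 and 844 normalised counts in controls and 890 and 667 in Tbx1cko. Jak1 and Jak3, the kinases on these chains, had 4838 to 7018 and 4187 to 8575. Crlf2, which pairs with Il7r in the TSLP receptor, had 1084, 2057 and 1239, then 1123 and 1071. In none of these named partners was control replicate 2 as far below the other libraries as in Il7r. Among SRC family kinases and LCK regulators, 12 of 12 were tested, 7 higher and 5 lower, with a median of 0.25 and 0 called, and without control replicate 2 there were 9 higher and 3 lower at a median of 0.06. Lyn, a kinase of myeloid and B cells, had 3246, 1453 and 3329 in controls and 3785 and 3820 in Tbx1cko, while Fyn, which T cells and endothelium share, had 2892 to 3319.

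Markers of other cells were read in the same libraries. All 10 pan-leukocyte genes were higher in Tbx1cko, with a median log2 difference of 0.40 (0.28 without control replicate 2), and limma called 0. Of them 7 were without overlap, against 14.2% of all genes tested that were higher without overlap. Their summed level per kilobase was 10182, 6308 and 9014 in controls 1, 2 and 3 and 11059 and 11369 in Tbx1cko. The 10 T and NK cell genes summed to 272, 186 and 390 per kilobase in controls and 287 and 380 in Tbx1cko, so their groups overlapped where the pan-leukocyte sums did not. Cd4 and Il7r, which other cells also express, made up 38.8% to 67.0% of the summed normalised counts of the members. The sum is therefore no measure of T and NK cells alone. Subtracting the pan-leukocyte level of each library gave a median log2 difference of -0.54 for the members and -0.60 for all genes tested.

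Macrophage and monocyte markers had 11 of 13 genes higher at a median of 0.35 and 0 called, and without control replicate 2 there were 7 higher and 6 lower at a median of 0.16. Their summed level per kilobase was 75933, 51359 and 58227 in controls and 72226 and 73079 in Tbx1cko, and Ccr2 was at 0 in control replicate 2. B cell markers had 6 of 12 higher at a median of 0.04 (-0.02) and 0 called, with sums of 1513, 1271 and 1138, then 1400 and 1340, and none at 0. Dendritic cell markers had 5 of 11 tested genes higher at a median of -0.02 (3 of 11 at -0.12 without that library) and 0 called, with sums of 6292, 10489 and 5868, then 6153 and 5538, and none at 0. Neutrophil markers had 6 of 6 tested genes higher at a median of 1.06 (0.90), 4 without overlap (against 14.2% of all genes), and 0 called. Their sums were 745, 462 and 768, then 1472 and 1142, with none of the 6 at 0, and Ly6g and Camp were not analysed here. Mural cell markers had 8 of 9 lower at a median of -0.86 (9 of 9 at -0.65). Of the 9, 8 were lower without overlap (against 13.9% of all genes), and limma called 0. DESeq2 without control replicate 2 called 5 mural markers, against 0.888% of the genes to which it gave an adjusted p. Immediate early genes, which cell dissociation can raise, had 18 of 18 lower at a median of -0.77 (-0.43). Of the 18, 16 were without overlap (against 13.9% of all genes), and limma called 0. DESeq2 without control replicate 2 called 3 immediate early genes, against the same 0.888%. The part of these cells, and of sample handling, in the values of the T and NK cell genes was not tested.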

How the data were processed

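Values were analysed for 3 control and 2 Tbx1cko libraries, grouped by sample title. TRIzol LS was used for RNA and a TruSeq kit for the libraries, per the labels' protocols. The submitters' processing notes name the build GRCm38 (mm10) and, among the tools, DESeq, DESeq2 1.20.0, R 3.5.1 and STAR 2.5.2b. For the counter, annotation and strand setting, nothing is given in the sources used here. The authors deposited 1 normalised signal for each gene and library, its reads scaled by a size factor. All values (100%) were whole multiples of 1 read within 0.01, which gave back the reads, and each gene had at least 12 in all.

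The main test was limma 3.58.1 (R 4.3.3) with a trended prior on log2(normalised count + 1), two-sided, for 14339 genes with a mean of at least 10, with Benjamini-Hochberg adjustment at 0.05. The added 1 draws log2 differences of low genes towards 0. Even so, those of Klrd1, Il7r, Cd3g, Nkg7, Cd2 and Cd3d lay further from 0 in limma than in edgeR with all libraries. Those of Cd3e, Cd4, Cd8a and Lck lay nearer to 0. Count tests on recovered reads (edgeR 4.0.16, DESeq2 1.42.0, voom), other filters, pseudocounts and scalings, and each library left out were alternatives. The fits were tested on simulated data, with changed genes drawn from all genes tested. Limma and edgeR called few of the changed genes with all 5 libraries and most of them without control replicate 2. The simulated noise was drawn for each gene on its own, with a spread taken from these same libraries. The deviation of control replicate 2 instead followed GC content over many genes, and how well the simulation matches such data was not tested. An absent call with all libraries thus says little, and DESeq2 with all libraries also called unchanged genes. How often a change in genes as low as the members would be called, with or without control replicate 2, was not tested. Length and GC content came from the principal transcript in GENCODE M21, to which 16741 symbols were matched, and a GC value existed for 95.9% of genes tested. Promoter windows came from RefSeq.

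The members and gene lists were chosen with earlier results of these data known. The text names all members, the 4 most abundant tested genes of a list (except 1 that is not reported here), and Tbx1, Ptprc and Pecam1. Other genes named were chosen after their values were seen.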

Additional observations from a re-analysis of the deposited data

How the results depend on the processing

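Limma called 0 of 14339 genes with all libraries, with 250 at an unadjusted p under 0.05, and edgeR called 0. DESeq2 called 4, edgeR without control replicate 2 called 1, and DESeq2 without it called 78. Leaving out 1 library at a time gave 0 to 3 calls, and without control replicate 2 there were 3. Leaving out a Tbx1cko library leaves 1, assumed to vary like the controls. Same-numbered libraries correlated at -0.0556 and -0.0461 in their deviations from the group mean. With 2 Tbx1cko libraries the deviations of 1 mirror those of the other, so this cannot show whether the numbers pair libraries. The fit with a replicate block called 3 genes. No member was called under any alternative, the lowest adjusted p being 0.246, for Il7r with the replicate block.

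Lck, Il7r and Klrd1 kept their direction under each alternative that gave a value. With all libraries edgeR and DESeq2 gave 0.91 and 0.92 for Il7r, against 1.42 in limma. They gave 0.93 and 0.94 for Klrd1, against 1.82, and 0.076 and 0.084 for Cd3g, against 0.37. Leaving out 1 library at a time gave -0.46 to -0.027 for Lck, 0.48 to 2.13 for Il7r and 0.33 to 2.69 for Klrd1, where the value nearest 0 for Lck and the highest for Il7r and Klrd1 came without control replicate 3. The replicate block, which gave the same differences as leaving out that library, gave 0.18 for Cd3e. Cd3d was -0.13 under quantile normalisation, -0.030 with voom and -0.016 with GC correction. Without control replicate 2, edgeR gave -0.105 for Cd3d and -0.36 for Cd3g, DESeq2 -0.074 and -0.35, and GC correction -0.045 and -0.28. GC correction gave 0.032 for Cd4. Centring on the pan-leukocyte genes, which moved the median of all genes to -0.60, gave -0.61 for Cd3d, -0.27 for Cd3g, -0.32 for Cd8a and -0.46 for Cd2, and a median of -0.54 over the members. For the members that turned direction, leaving out 1 library at a time gave -0.51 to 0.19 for Cd3e, -0.55 to 0.59 for Cd3d, -0.25 to 0.96 for Cd3g, -0.32 to 0.25 for Cd4, -0.20 to 0.83 for Cd8a, -0.046 to 0.39 for Cd2 and -1.65 to 0.14 for Nkg7. The cause was not tested. Cd3d, Nkg7, Klrd1, Cd8a, Cd3g and Cd3e had 77 to 151 reads over all libraries, and Lck, Cd4 and Il7r, with 427, 745 and 1370, were not called either.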
